A study of Mus musculus with 44 samples.

Results

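A single TCRβ clonotype accounted for at least 25% of the TCRβ reads in 9 of 44 B16 tumours, and these 9 dominated tumours are described here against the 35 others. The share was the largest TRB read count of a tumour over its summed TRB count. A CDR3 was taken as TRB if its amino acid sequence ended in the set closing residues of 1 of 12 mouse TRBJ genes. These can be shorter than the germline J part of the CDR3, as TEVFF is for the NTEVFF of Trbj1-1. B16F10 is a mouse melanoma line. All tumours grew under the skin of the back of wild-type C57BL/6 mice (C57BL/6J by the methods) and were taken on day 12, and they differed in treatment. The mice received vehicle (14 tumours), the checkpoint antibody anti-PD-1 (15 tumours) or AC484, an inhibitor of the phosphatases PTPN2 and PTPN1 (15 tumours). The sample labels say vehicle where the methods say no treatment. Each tumour gave 1 library of bulk tissue. The methods give a dose of anti-PD-1 by tumour line and several schedules of AC484, and the account of the tumours profiled here does not say which was used. No gene expression was measured, so the tissue could not be checked against marker genes.

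An αβ T cell carries a receptor made of an α and a β chain, each assembled in the thymus by joining gene segments. The joint forms the CDR3, the loop that contacts the presented peptide, and bases added or trimmed at the joint make most CDR3s rare. A T cell that meets its antigen divides, and its daughters inherit the same receptor, so a CDR3 with a large share of the reads is read as a sign of an expanded clone. In bulk RNA more cells and more receptor RNA per cell cannot be told apart, and the reads carried no molecular identifiers. Clone is used below for a CDR3 amino acid sequence within a tumour. The α and β chains were read separately, so which α belonged with which β is not known.

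The dominating β chains are shown first, because no 2 of the tumours had the same one. A name is followed by the CDR3 from its first cysteine to its last phenylalanine, read from the deposited table, and the 2 CDR3s of 15 residues (vehicle-treated tumours 1 and 12) are given below by length and J gene.
Anti-PD-1-treated tumour 6: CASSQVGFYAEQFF
AC484-treated tumour 4: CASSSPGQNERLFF
Vehicle-treated tumour 3: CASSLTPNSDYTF
Vehicle-treated tumour 14: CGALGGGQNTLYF
Vehicle-treated tumour 13: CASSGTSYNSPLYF
Vehicle-treated tumour 5: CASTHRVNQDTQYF
AC484-treated tumour 1: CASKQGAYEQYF

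The 9 tumours were chosen by their largest TRB share, so these shares are given as a description. The anti-PD-1-treated tumour 6 stood highest, with 60.4% of its TRB reads in 1 CDR3 (164981 reads, Wilson 95% interval 60.2 to 60.5%). The AC484-treated tumour 4 followed at 54.3% (221100 reads, 54.2 to 54.5%). In both, the CDR3 alone held more reads than all others together. Among the vehicle-treated tumours, tumour 3 had 39.9% (42044 reads), tumour 1 had 35.4% (20639 reads), tumour 14 had 33.1% (62201 reads) and tumour 12 had 32.0% (17535 reads). The last 3 tumours lay nearest to the threshold. These were the vehicle-treated tumour 13 at 29.9% (23698 reads), the vehicle-treated tumour 5 at 27.4% (1983 reads, 26.4 to 28.4%) and the AC484-treated tumour 1 at 26.6% (52128 reads, 26.5 to 26.8%). Tumour 5 was the shallowest of the 9 libraries, with 7238 TRB reads against 54740 to 407156 in the other dominated tumours. Intervals cover counting error only. Just below the threshold were the vehicle-treated tumour 11 at 23.0%, whose CDR3 of 15 residues used Trbj2-4, the AC484-treated tumour 11 at 22.7% (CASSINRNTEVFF, Trbj1-1) and the AC484-treated tumour 14 at 22.6% (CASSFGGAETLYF, Trbj2-3). The shares therefore run on across the threshold, and the 35 other tumours ranged from 5.81 to 23.0% (median 14.8%).

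**Figure D1:**
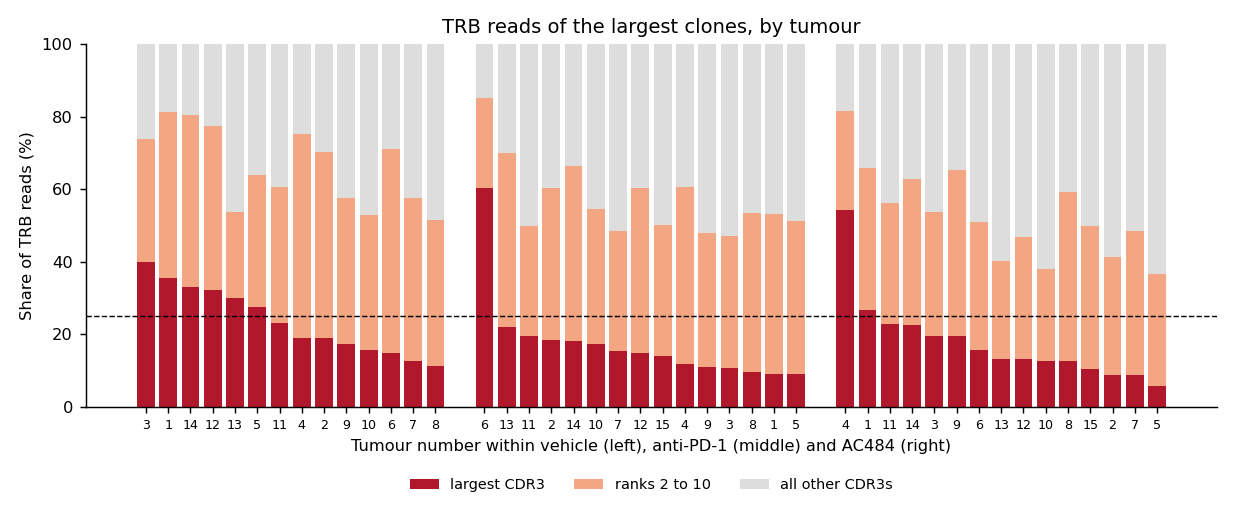
Share of TRB reads (%) in the largest CDR3 (red), in ranks 2 to 10 (orange) and in all other CDR3s (grey) for each of the 44 tumours, ordered within treatment by the largest share. The dashed line is the 25% threshold, passed by 6 tumours on vehicle (left), 1 on anti-PD-1 (middle) and 2 on AC484 (right).

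A dominating CDR3 did not always mean that 1 clone stood alone. The largest share was 6.05 times the second in the anti-PD-1-treated tumour 6, 5.66 times in the AC484-treated tumour 4 and 5.03 times in the vehicle-treated tumour 13. It was 1.77 times in the vehicle-treated tumour 14 and 1.63 times in tumour 12, where the second clone held 18.7 and 19.7% of the TRB reads. These tumours thus had a pair of large clones, whereas the first 3 had a steep drop after the first. In the remaining 4 the ratio was 2.68 (vehicle 1), 3.40 (AC484 1), 3.59 (vehicle 5) and 3.82 (vehicle 3), and in the 35 other tumours it ranged from 1.01 to 3.39 (median 1.33). Second clones held 5.95 to 19.7% of the TRB reads in the dominated tumours and 3.86 to 18.4% in the others. The ranges of the second clone overlapped almost wholly.

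The number of clones needed to reach a given share varied widely among the 9. In the anti-PD-1-treated tumour 6 and the AC484-treated tumour 4, 1 clone reached 50% of the TRB reads. Vehicle-treated tumours 3, 12 and 14 needed 2, tumour 1 needed 3, and tumour 5 and the AC484-treated tumour 1 needed 5. The vehicle-treated tumour 13 needed 8, since its clones after the first were small and even (5.95% at rank 2 and 2.77% at rank 3). The other tumours needed 4 to 42 (median 9). The number of clones with at least 1% of the TRB reads was 6 in 3 dominated tumours (anti-PD-1 6, vehicle 3 and vehicle 14) and 27 in the vehicle-treated tumour 5, and the others held 7 to 21. The 10 largest clones together held 53.6 to 85.1% of the TRB reads in the dominated tumours and 36.7 to 75.2% in the others.

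**Figure D2:**
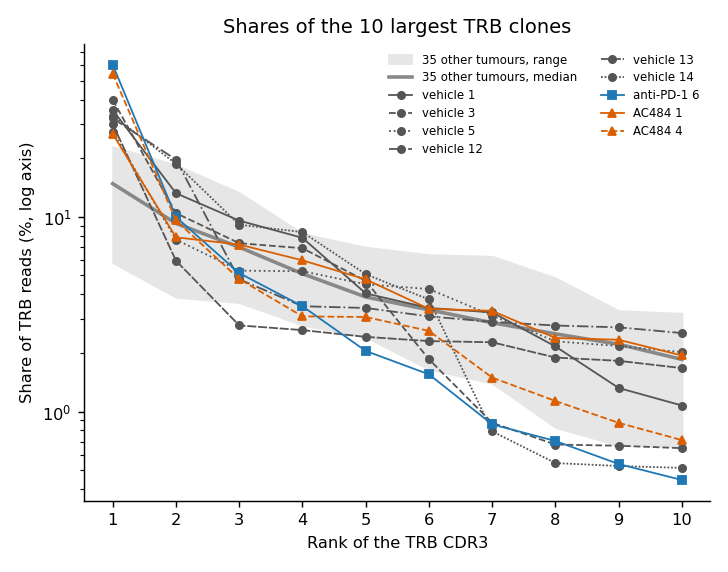
Share of TRB reads (%, log axis) of the 10 largest TRB CDR3s by rank in each of the 9 dominated tumours (lines), with the range and median of the 35 other tumours (grey). The anti-PD-1-treated tumour 6 and AC484-treated tumour 4 fall steeply from 60.4 and 54.3% at rank 1, while vehicle-treated tumours 12 and 14 keep 19.7 and 18.7% at rank 2.

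The 9 dominating β CDR3s were unlike each other. Over their 36 pairs the edit distance, the number of residues changed, added or removed to turn one into the other, was 4 to 11 (median 8). They used 8 of the 12 TRBJ genes, and only Trbj1-6 appeared in 2 tumours. TRBJ genes encode the end of the β CDR3, and all lie in the TCRβ locus on chromosome 6, plus strand. By GRCm38 coordinates the anti-PD-1-treated tumour 6 used Trbj2-1 (chr6:41542754-41542803) and the AC484-treated tumour 4 used Trbj1-4 (chr6:41534811-41534861). Vehicle-treated tumours 1 and 13 used Trbj1-6 (chr6:41535554-41535606), tumour 3 used Trbj1-2, tumour 5 used Trbj2-5 (chr6:41543453-41543501), tumour 12 used Trbj1-1 and tumour 14 used Trbj2-4, and the AC484-treated tumour 1 used Trbj2-7. Lengths were 12 to 15 residues (median 14), against 11 to 18 (median 14) for the largest β CDR3s of the other tumours. Between the germline V and J parts lay 2 to 4 residues (median 4) that neither germline part encodes, such as VGF in the anti-PD-1-treated tumour 6. That stretch was 0 to 6 residues (median 4) in the other tumours. The table holds no V gene, and the start of the CDR3 matched a single functional TRBV gene only in the vehicle-treated tumour 14, Trbv20. Near-copies of the dominating CDR3 at an edit distance of 1 numbered 0 to 2 per tumour (median 1), with at most 0.0381% of its reads. The largest β CDR3s of the other tumours had 0 to 14 (median 0), with at most 3.71% of the reads of the CDR3.

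Largest α clones are made of other reads than those that chose the tumours, so they can be compared. The α chains are shown by name, largest TRA CDR3 of up to 14 residues first.
Vehicle-treated tumour 1: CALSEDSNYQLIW
Vehicle-treated tumour 5: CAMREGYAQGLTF
Vehicle-treated tumour 13: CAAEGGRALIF
Vehicle-treated tumour 12: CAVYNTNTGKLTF
Anti-PD-1-treated tumour 6: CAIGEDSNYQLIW
AC484-treated tumour 1: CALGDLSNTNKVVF

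In the vehicle-treated tumour 1 the largest α CDR3 held 71.5% of the TRA reads, using Traj33 (chr14:54185358-54185414), 20.4 times the share of the second. The AC484-treated tumour 4 had 45.6% in a CDR3 of 17 residues with Traj17, and the vehicle-treated tumours 5 and 13 had 38.4% (Traj26) and 34.6% (Traj15). Among the 35 other tumours the largest α share ranged from 4.73 to 35.0% (median 15.2%), and the first 3 of these dominated tumours exceeded them all. The vehicle-treated tumour 14 had 31.4% in 15 residues with Traj7, tumour 12 had 27.4% (Traj27), the anti-PD-1-treated tumour 6 had 27.3% (Traj33) and the vehicle-treated tumour 3 had 23.9% in 15 residues with Traj24. The AC484-treated tumour 1 was lowest at 18.2% (Traj34). Apart from the 3 highest, the dominated tumours fell within the range of the other tumours. Of these others only the anti-PD-1-treated tumours 15 (35.0%) and 11 (26.2%) exceeded 23.9%. The order differed between the chains, since the tumour with the highest β share was the seventh of the 9 by α share.

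A single large α chain was not seen in each dominated tumour. In the vehicle-treated tumour 12 the first and second α clones were nearly equal, at 27.4 and 27.1%, and in tumour 3 they held 23.9 and 20.6%. The AC484-treated tumour 4 had 45.6 and 29.7%. T cells can carry a second rearranged α chain, and whether such pairs came from the same or from different cells was not tested. At the other end, in the vehicle-treated tumours 1, 5 and 13 the first α clone was 20.4, 6.02 and 5.35 times the second, where the other tumours ranged from 1.02 to 5.41 (median 1.49).

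Dominance by β went with a larger α clone. The largest α share averaged 35.4% ± 15.8 (SD, n = 9) in the dominated tumours and 15.5% ± 6.48 (SD, n = 35) in the others, and with treatment as a factor the difference was 18.5 percentage points (95% interval 11.0 to 26.4). In an exact permutation test of labels within treatment, two-sided, p was 2.24e-05, and 0.000224 after Benjamini-Hochberg adjustment over 10 measures. All 9 dominated tumours were above the median of the other tumours of their own treatment. The difference was 20.6 points in vehicle-treated tumours, 11.2 points for the 1 anti-PD-1-treated tumour and 18.3 points in AC484-treated tumours. The libraries were indexed in 4 primer sets, and the difference held within those sets that held both kinds of tumour: 23.0 points among vehicle-treated tumours of set 1 (exact permutation p = 0.00202, the smallest that 4 against 8 tumours allows), 15.8 points among anti-PD-1-treated tumours of set 2 (exact p = 0.1, the smallest possible with 1 against 9) and 23.7 points among AC484-treated tumours of set 3 (exact p = 0.0476, the smallest possible with 2 against 5).

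**Figure D3:**
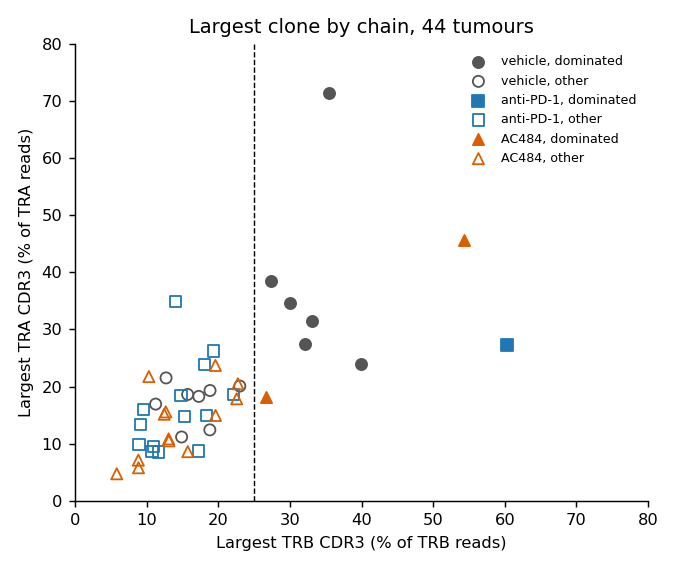
Largest TRA CDR3 (% of TRA reads) against largest TRB CDR3 (% of TRB reads) for 44 tumours, with filled symbols right of the dashed 25% line for the 9 dominated tumours and open symbols for the others. The dominated tumours lie between 18.2 and 71.5% on the vertical axis and the others between 4.73 and 35.0%.

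Dominated tumours also held fewer different α chains. With each tumour drawn to the same 1466 TRA reads, the vehicle-treated tumours had 69.0 (tumour 5), 83.0 (tumour 1), 96.6 (tumour 12), 221 (tumour 13), 222 (tumour 3) and 235 (tumour 14) distinct α CDR3s. The AC484-treated tumours 4 and 1 had 136 and 293, and the anti-PD-1-treated tumour 6 had 291. The other tumours held 132 to 492 (median 328), so only 3 vehicle-treated dominated tumours fell below their range. Means were 183 ± 88.1 (SD, n = 9) and 332 ± 77.1 (SD, n = 35), and the treatment-adjusted difference was -118 (95% interval -181 to -52.6, exact permutation p = 0.00101, adjusted p = 0.00506). All 9 were below the median of the others of their treatment. A draw that holds 1 very large α clone leaves fewer reads for the rest, so this count and the α share above are not independent. Without the 5 libraries under 20000 TRB reads, 1 of which was dominated, the difference was -91.1 and the adjusted p 0.0572.

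The β repertoire behind the dominating clone was compared after removing the largest TRB CDR3 from each of the 44 tumours and drawing the rest to 4265 reads. The Shannon entropy, which is high when many clones share the reads evenly, was lowest among the 9 dominated tumours in the vehicle-treated tumours 1 (3.23 nats), 12 (3.24), 14 (3.44) and 5 (3.59). It was 3.85 in the anti-PD-1-treated tumour 6, 4.10 in the vehicle-treated tumour 3, 4.14 and 4.18 in the AC484-treated tumours 4 and 1, and 4.58 in the vehicle-treated tumour 13. The other tumours had 3.37 to 6.05 (median 4.66), so that the groups overlapped. Means were 3.82 ± 0.469 nats (SD, n = 9) and 4.61 ± 0.537 (SD, n = 35), with a treatment-adjusted difference of -0.588 (95% interval -1.02 to -0.172, exact permutation p = 0.00740, adjusted p = 0.0247), and 8 of 9 dominated tumours were below the median of the others of their treatment. The exception was the vehicle-treated tumour 13. Adjusted p was 0.0647 without the anti-PD-1-treated tumour 6, 0.0580 without the AC484-treated tumour 1 and 0.0606 without the AC484-treated tumour 4, with differences of -0.56 in each, and it was 0.158 without the 5 shallow libraries.

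Other measures of the remaining β repertoire were lower in all 9 dominated tumours than the median of the others of their treatment but missed the threshold after adjustment. The rule bounds these in part as well. The remaining reads held 382 ± 218 distinct β CDR3s (SD, n = 9), from 99.7 in the vehicle-treated tumour 5 to 750 in the AC484-treated tumour 4, and 706 ± 262 (SD, n = 35) in the others. The treatment-adjusted difference was -205 (95% interval -381 to -28.2, exact permutation p = 0.0262, adjusted p = 0.0510). Recognition groups, sets of at least 2 CDR3s linked by a single residue change, insertion or loss, numbered 3.55 to 52 in the dominated tumours (mean 21.8 ± 16.2, SD, n = 9) and 2.15 to 123 in the others (46.5 ± 21.8, SD, n = 35). Their difference was -15.8 (95% interval -30.1 to -1.63, exact permutation p = 0.0317, adjusted p = 0.0510). Within strata of treatment and index set together both passed, at -231 distinct CDR3s and -18.4 groups (adjusted exact permutation p = 0.0170 for each). Strata with only dominated or only other tumours do not enter that comparison. It thus left out the dominated vehicle-treated tumours 13 and 14, the 8 AC484-treated tumours of set 4 and the 5 anti-PD-1-treated tumours of set 3. With no treatment factor the distinct CDR3s differed by -324 (adjusted exact permutation p = 0.00274). Both differences shrank without the 5 libraries under 20000 TRB reads, to -116 distinct CDR3s and -8.84 groups (adjusted exact permutation p = 0.293 for each). At a threshold of 30% in place of 25% they were -115 and -9.40 (adjusted exact permutation p = 0.327 for each).

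**Figure D4:**
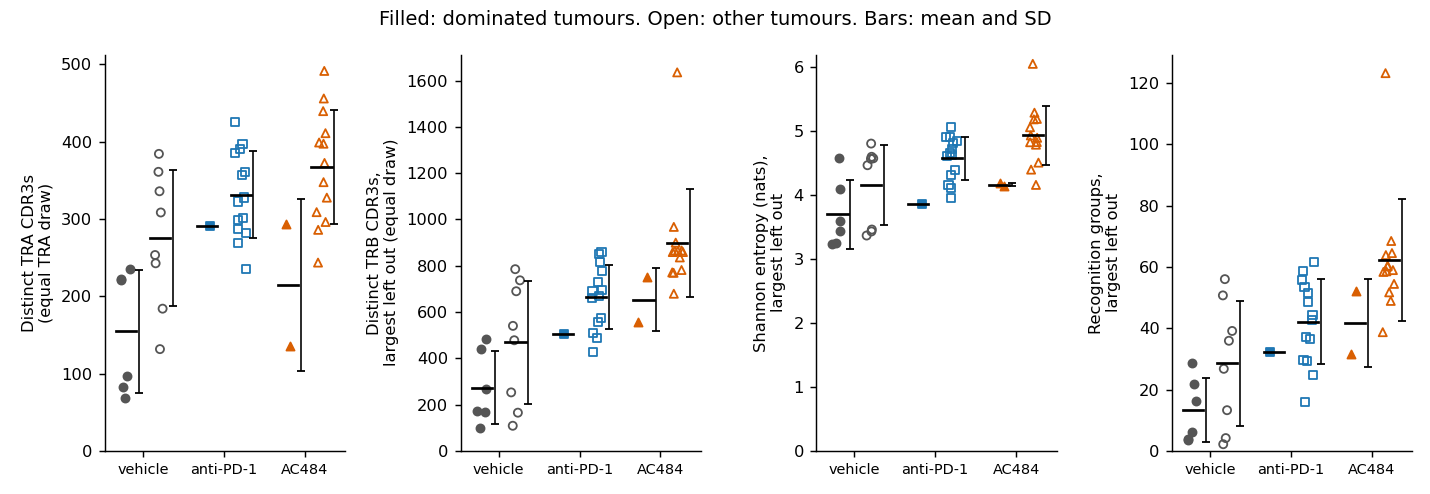
Distinct TRA CDR3s in 1466 drawn reads, and distinct TRB CDR3s, Shannon entropy (nats) and recognition groups in 4265 TRB reads drawn after leaving out the largest TRB CDR3, by treatment, for dominated (filled) and other (open) tumours with mean and SD (no SD for the 1 dominated anti-PD-1-treated tumour). In each treatment the mean of the dominated tumours is below that of the others in all 4 panels.

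The clone that followed the dominating one held 8.49 to 28.9% of the reads without the largest clone (mean 18.9% ± 7.72, SD, n = 9) against 12.3% ± 4.97 (SD, n = 35). A second clone cannot exceed the first, so the rule itself caps this value in the other tumours, and the values are a description. The treatment-adjusted difference was 5.06 points, and it ranged from 3.50 points without the anti-PD-1-treated tumour 6 to 6.32 points without the vehicle-treated tumour 13. Mean CDR3 length of the remainder was 14.1 residues in both groups (difference 0.00369, 95% interval -0.0486 to 0.0568, exact permutation p = 0.892). CDR3s found in at least 10 other tumours made up 7.43% ± 3.16 (SD, n = 9) of the distinct remaining CDR3s and 5.05% ± 1.40 (SD, n = 35) in the others, a difference of 1.70 points (95% interval -0.115 to 3.39, exact permutation p = 0.0659, adjusted p = 0.0824). The difference was 0.812 points without the 5 shallow libraries. It was 0.305 points (adjusted exact permutation p = 0.422) when counts under 1% of a CDR3's largest count in any tumour were removed, a step that bears directly on which CDR3s count as found elsewhere.

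Use of J genes among the remaining β CDR3s was close between the groups. Each distinct CDR3 was counted once, and 1 of 12 TRBJ genes (8.33%) differed by edgeR's quasi-likelihood test with treatment in the model. Trbj2-5, whose germline part ends in DTQYF, made up 13.4% ± 1.72 (SD, n = 9) of the distinct remaining CDR3s in dominated tumours and 12.2% ± 1.02 (SD, n = 35) in the others (log2 fold change 0.15, SE 0.04, edgeR adjusted p = 0.00828). The call was not kept without the AC484-treated tumour 1 (edgeR log2 fold change 0.10, adjusted p = 0.251; then Trbj2-2 was called, at -0.22) or without the AC484-treated tumour 4 (0.15, adjusted p = 0.0948). Of the other J genes of dominating clones, Trbj1-6 was at -0.13 (edgeR adjusted p = 0.496), Trbj1-2 at -0.08, Trbj2-1 at 0.04, Trbj2-4 at 0.06, Trbj1-1 at -0.02, Trbj1-4 at -0.01 and Trbj2-7 at 0.00. Of 43 TRAJ genes 0 were called (0%) by edgeR at an adjusted p under 0.05, with 2 at an unadjusted p under 0.05, and DESeq2 also called 0. Traj18 and Traj33, which the invariant α chains of iNKT and MAIT cells use, made up 2.28 and 3.46% of the distinct α CDR3s in dominated tumours and 2.17 and 3.18% in the others. A J gene alone does not name either cell type, also for the Traj33 chains of the vehicle-treated tumour 1 and the anti-PD-1-treated tumour 6, which differed by 2 residues.

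Labels of treatment were not used to choose the tumours. Of the vehicle-treated tumours 6 of 14 were dominated (42.9%, exact 95% interval 17.7 to 71.1%), of the anti-PD-1-treated 1 of 15 (6.67%, 0.169 to 31.9%) and of the AC484-treated 2 of 15 (13.3%, 1.66 to 40.5%). A two-sided exact test of the 3 by 2 counts gave p = 0.0667, so the difference between treatments did not pass a threshold of 0.05. Vehicle against anti-PD-1 gave an exact p of 0.0352, and 0.106 after adjustment over the 3 pairs, vehicle against AC484 an adjusted exact p of 0.163 and anti-PD-1 against AC484 an adjusted exact p of 1. Without the 5 libraries under 20000 TRB reads, all vehicle-treated, the counts were 5 of 9, 1 of 15 and 2 of 15. The exact p was then 0.0256. In the same order, a share threshold of 0.20 gave 7 of 14, 2 of 15 and 4 of 15 (exact p = 0.105). A threshold of 0.30 gave 4 of 14, 1 of 15 and 1 of 15 (exact p = 0.249). Chains called by germline match gave 6 of 14, 2 of 15 and 2 of 15 (exact p = 0.126). Removing carry-over or near-copies left the counts and the exact p of 0.0667 unchanged. Only the setting without the shallow libraries passed 0.05. Index sets followed treatment in large part. Set 1 held vehicle-treated tumours only (4 of 12 dominated) and set 4 AC484-treated tumours only (0 of 8). Set 2 held 2 vehicle-treated tumours, both dominated, and 10 anti-PD-1-treated tumours, 1 dominated. In set 3, 2 of 7 AC484-treated and 0 of 5 anti-PD-1-treated tumours were dominated.

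Depth is to be set beside these values. TRB reads per library were 7238 to 407156 (median 105505) in the dominated tumours and 5060 to 399662 (median 132356) in the others. Within treatment the dominated libraries had 2.41 times the TRB reads of the others. The TRB total is the denominator of the share that chose the tumours, so this is a description. With the largest clone left out of the total the log2 difference was 0.76 in place of 1.27. The part of depth in the results at equal draws was not tested. The α share of reads, TRA over TRA plus TRB reads, was 17.8% ± 12.4 (SD, n = 9) in dominated tumours and 23.8% ± 12.1 (SD, n = 35) in the others. The treatment-adjusted difference was -4.52 points (95% interval -11.1 to 2.09, exact permutation p = 0.175). The denominator of this share holds the TRB total that the rule used, so this too is a description. The difference was 0.407 points with chains called by germline match and 0.00778 points within treatment and index set.

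Dominating β CDR3s were found in other libraries, mostly at low counts and in a higher share of the libraries of their own index set. They were in 2 to 20 other tumours (median 15), and the largest β CDR3s of the 35 other tumours were in 3 to 29 (median 9). The CDR3 of the AC484-treated tumour 4 was in 20 other tumours, that of the vehicle-treated tumour 3 in 18, and those of the anti-PD-1-treated tumour 6 and the vehicle-treated tumour 12 in 16 each. That of the vehicle-treated tumour 5 was in 2. Except for tumour 5 (9.09 and 3.13%), each was in 72.7 to 100% of the 11 other tumours of the same set and in 6.25 to 28.1% of the 32 tumours of other sets. For 8 of the 9 the largest count elsewhere was at most 1.56% of the reads in the dominated tumour. Carry-over between libraries of a set and true sharing were not told apart, and removing every count under 1% of a CDR3's largest count changed no tumour's class. The exception was the vehicle-treated tumour 12, whose Trbj1-1 CDR3 of 15 residues was also the fourth largest of the vehicle-treated tumour 7, with 7.00% of its TRB reads (5214 reads), and made up 1.19% in tumour 5. All 3 tumours were in set 1. Likewise the Traj33 α CDR3 of the vehicle-treated tumour 1 was the fourth largest of the vehicle-treated tumour 6, with 5.59% of its TRA reads.

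**Figure D5:**
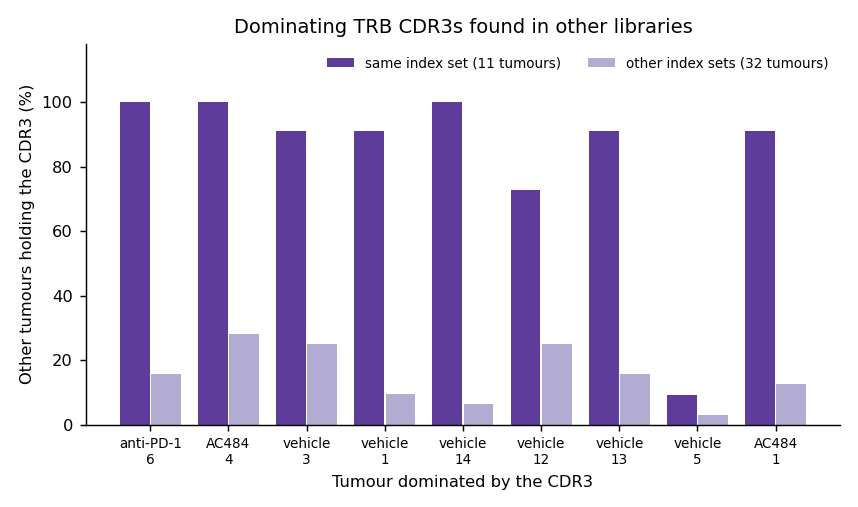
Share (%) of the 11 other tumours of the same index set (dark) and of the 32 tumours of other index sets (light) in which the dominating TRB CDR3 of each dominated tumour was found at any count. For 8 of the 9 the dark bar is 72.7 to 100% and the light bar at most 28.1%, and for the vehicle-treated tumour 5 they are 9.09 and 3.13%.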

How the data were processed

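TCRα and TCRβ transcripts of 44 tumours were captured (SMARTer Mouse TCR a/b Profiling kit), read on a MiSeq and assembled by the authors with MiXCR, and the submitters' processing notes name mm10. The deposited counts are reads per amino acid CDR3 and tumour, not normalized, both chains together (170818 entries), with no chain, V gene or nucleotides. The deposited fraction of each clone, over both chains, and the other deposited columns, CDR3 length and library concentration, were not tested here. TRB entries by the rule held 70.2% of the reads (56.1% of entries). TRA entries, by germline TRAJ endings of GRCm38 (at least 4 residues), held 20.5%. TRB-like entries without a TRBJ ending of the rule (8.43%) and unassigned entries (0.851%) were left out.

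Tumours were drawn without replacement to 1466 TRA reads and 4265 TRB reads after leaving out the largest clone (100 draws, 20 for recognition groups). Differences were averaged within treatment (weights 56.3% vehicle, 15.3% anti-PD-1, 28.4% AC484) and tested by 4729725 exact permutations, two-sided, with intervals by test inversion and Benjamini-Hochberg adjustment over 10 measures. These include TRB reads, the α share of reads and the second clone's share. The rule uses or bounds these, at least in part, and they are only described. The entropy, distinct CDR3s and groups of the remainder are bounded by it in part. With no difference simulated, 12 of 200 p fell under 0.05. J usage was tested with edgeR 4.0.16 (DESeq2 1.42.0 as an alternative), for J genes with at least 100 distinct CDR3s. In simulated counts of 12 TRBJ genes it recovered 98.3% of 1.3-fold changes, and of 43 TRAJ genes 49% of 1.3-fold and 98.6% of 2-fold changes. Tumours are separate animals by the methods. Same-numbered tumours did not deviate together (9 of 43 pairs with r over 0.1, median r -0.0315), so numbers did not pair them.

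The members, measures and lists were chosen with earlier results of these data known. Named CDR3s were the largest of each chain in every dominated tumour and the largest TRB of the 3 tumours just under the threshold. CDR3s over 14 residues are not spelled out. Alternatives were other thresholds, strata, ranks, filters, chain calls and tumours left out. R 4.3.3 ran edgeR, and Python 3.11.15 ran the other steps with SciPy 1.17.1, pandas 2.3.3, NumPy 2.4.6 and matplotlib 3.10.9.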

Additional observations from a re-analysis of the deposited data

Results flagged for a closer look

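Of 30 combinations of group and measure, 3 had a tumour far from the others, where chance gives about 1 in 20. The vehicle-treated tumour 5 had the fewest TRB reads of the 9 dominated tumours, 12.8 on the log2 scale against a median of 16.7, and the shortest mean CDR3 of the remainder, 13.9 residues against a median of 14.1. The vehicle-treated tumour 1 had the largest α share of the 6 dominated vehicle-treated tumours, 71.5% against a median of 33.0%.

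Some entries outside the rule were large. A single TRB-like CDR3 without a J ending of the rule held 28.6% of all TRB-like reads in the anti-PD-1-treated tumour 15 (29851 reads). The largest such CDR3 held 17.9% in the AC484-treated tumour 15 and 15.1% in the AC484-treated tumour 13, where the highest vehicle-treated tumour had 15.0%. With these entries counted, the anti-PD-1-treated tumour 15 would also be dominated, and its largest α share of 35.0% was the highest of the 35 others. An entry given to neither chain held 6.14% of the reads of the AC484-treated tumour 12, where the highest vehicle-treated tumour had 4.33%. Differences between dominated and other tumours were compared between vehicle and AC484, and none passed (smallest adjusted exact permutation p = 0.940).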

How the results depend on the processing

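The difference in the largest α share was past the threshold under all 19 alternatives (adjusted p 5.13e-06 to 0.00506) and ranged from 14.8 to 20.9 points with 1 dominated tumour left out. The counts of tumours set the limits: 9 dominated tumours, 1 of them anti-PD-1-treated, and 5 libraries under 20000 TRB reads, where rare clones are missed. Draws to the shallowest library discard most reads of the deep ones. The cause of the changes below was not tested. TRB reads, the α share of reads and the largest remaining clone are bounded or used by the rule, at least in part. Their values are descriptions, also where any passed. They stay among the 10 measures of the adjustment. Entropy, distinct TRB CDR3s and groups of the remainder are bounded in part by the rule, also where they passed.

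At a threshold of 0.20 (13 dominated tumours) the largest remaining clone differed by 6.25 points and passed. At 0.30 (6 tumours) TRB reads (1.69, log2) and the largest remaining clone (10.0 points) passed, the public share turned to -0.0820 and 0 TRBJ genes were called. With no treatment factor distinct TRB CDR3s (-324), the largest remaining clone (6.67), recognition groups (-24.7) and the public share (2.38) passed, with 0 TRBJ genes. The replicate block stood in place of treatment in the permutation tests, so these had no treatment factor. TRB reads then turned to -0.689 and mean length to -0.00171. Entropy was -0.654 and missed the threshold (adjusted exact permutation p 0.0572), and the largest remaining clone was 7.84 and passed. In edgeR the block was added to treatment, and 0 TRBJ genes were called (Trbj2-5, 0.16, adjusted p 0.0742). The numbers did not pair the tumours, since 6 of 44 correlated best with one of their own number (median r -0.0315 for the same and -0.00537 for other numbers). Within treatment and index set the α share of reads turned to 0.00778 and mean length to -0.00757. Distinct TRB CDR3s (-231), the largest remaining clone (6.47) and groups (-18.4) passed. In the permutation tests of this setting and of the replicate block, strata with only dominated or only other tumours did not enter. On ranks TRB reads (10.4), distinct TRB CDR3s (-10.1) and groups (-9.45 rank units) passed.

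Without libraries under 20000 reads distinct α CDR3s (-91.1) and entropy (-0.405) missed the threshold, mean length turned to -0.000240 and the spread of dominated shares between treatments passed (48.9 against 36.2 points). With near-copies removed TRB reads (1.27), distinct TRB CDR3s (-204) and groups (-16.7) passed. With chains called by germline match (10 dominated tumours) the α share of reads turned to 0.407 and entropy (-0.443) missed the threshold. With no equal draw distinct α CDR3s differed by -257 and missed it. Removing carry-over and, chosen after seeing the data, leaving the largest clone out of the TRB total (0.76) changed no call, though carry-over removal took the public share from 1.70 to 0.305 points.

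With 1 dominated tumour left out, the ranges were -131 to -98.4 for distinct α CDR3s, -7.05 to -3.11 points for the α share of reads, 1.08 to 1.58 (log2) for TRB reads, -228 to -182 for distinct TRB CDR3s, -0.690 to -0.546 for entropy, 3.50 to 6.32 points for the largest remaining clone, -17.5 to -13.4 for groups, -0.00767 to 0.0230 residues for length, 1.17 to 2.14 points for the public share and 0 to 1 called TRBJ genes. TRB reads passed without the vehicle-treated tumour 5, distinct TRB CDR3s, groups and the public share without the vehicle-treated tumour 3 or 14, and mean length turned without the vehicle-treated tumour 3 (-0.00767) or 14 (-0.00387) or the anti-PD-1-treated tumour 6 (-0.00135).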

Other observations

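A single α CDR3, CAAKDYSNNRLTL with Traj7 (chr14:54211470-54211528), recurred behind the dominating chains and was picked after its values were seen. It was the second largest α clone in the vehicle-treated tumour 12 (27.1% of TRA reads) and in the AC484-treated tumours 4 (29.7%) and 1 (8.55%). Tumour 12 lay in index set 1 and the other two in set 3. It was found in 9 of 9 dominated tumours, at 0.355 to 29.7% (median 2.13%) and at 1% or more in 8. In the other tumours it was found in 32 of 35, at 0 to 15.0% (median 1.06%), at 1% or more in 18. Among the others it was the largest α clone in the anti-PD-1-treated tumour 2 (15.0%) and the second largest in the vehicle-treated tumour 6 (7.49%) and the anti-PD-1-treated tumours 1 (12.1%) and 15 (13.3%). A high rank was thus found in both groups, the groups overlapped and the difference was not tested.

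The largest α CDR3 used Traj7 in 1 of 9 dominated tumours and in 18 of 35 others, which is 3 of 8 vehicle-treated, 10 of 14 anti-PD-1-treated and 5 of 13 AC484-treated tumours. All Traj7 CDR3s together held 2.24 to 55.0% of the TRA reads in dominated tumours (median 14.9%) and 3.67 to 55.2% in the others (median 21.8%). This too was noticed in the data and not tested.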
